A study of Mus musculus with 8 samples.

Results

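The mitochondrial respiratory chain genes described here are the nuclear genes of complexes I to V, picked by symbol: those beginning with Nduf, Uqcr or Atp5, the genes Sdha to Sdhd, and the Cox4 to Cox8 subunits. Of the 38920 rows in each table, 96 protein-coding genes matched, and 93 had a value above 0 in 4 or more of the 8 libraries. These 93 are 85 subunit genes (39 of complex I, 4 of complex II, 8 of complex III, 17 of complex IV and 17 of complex V) and 8 complex I assembly factors of the Ndufaf series. Of the kept subunits, 79 were above 0 in all 8 libraries. Ndufa4l2, Cox4i2, Cox8b and Cox8c were above 0 in 7, and Cox6b2 and Cox7b2 in 6. The 3 genes that were left out are Cox6a2, which was above 0 in 3 libraries, and Ndufb4b and Ndufb4c, which were listed at 0 in all. A further 11 rows of related names, which the gene table lists as pseudogenes, were dropped.

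The study compared 2 groups of C57BL/6 mice through RNA of gastric epithelial cells sorted from the stomach, after depletion of ribosomal RNA. The HFD group holds libraries 22, 23, 26 and 27 of mice fed a high fat diet. The ND group holds control libraries 15-17-18, 16, 19 and 20. The sources used here give no diet composition or duration, age, sex or sorting gate. ND 15-17-18 carries 3 numbers in its title, and no label states whether several mice were pooled in it. No label says that each library is 1 animal, so p-values measure the spread between these libraries, which may be technical.

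The respiratory chain passes electrons from NADH and succinate through protein complexes of the inner mitochondrial membrane to oxygen, and the proton gradient that results drives ATP synthase. Complex I oxidises NADH, complex II oxidises succinate, complex III passes electrons to cytochrome c, complex IV reduces oxygen, and complex V makes ATP. All but complex II combine subunits from nuclear genes with subunits encoded in the mitochondrial genome, and those mitochondrial genes were not analysed here. Parietal cells, the acid-secreting cells of the gastric glands, are packed with mitochondria because the gastric proton pump consumes ATP. In bulk RNA, a change in the share of such cells and a change of RNA per cell cannot be told apart.

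Estimated depth was 31.4 to 46.0 M reads in HFD libraries and 16.4 to 63.2 M reads in ND libraries. The 20 most abundant rows took 29.0% to 43.1% of the total in HFD libraries and 27.8% to 85.7% in ND libraries, with the highest share in ND 15-17-18. All libraries had been brought to 1 common total, so each was rescaled by the median ratio of 11115 well measured rows, which divided ND 15-17-18 by 0.176 and the other 7 libraries by 0.677 to 1.37. HFD 23 was the least like the others, with Spearman correlations over all rows of 0.845 to 0.896 against 0.910 to 0.980 between the others. Levels below are log2(scaled value + 1), where 1 unit is a doubling, and differences are HFD minus ND on that scale with their SE. Values without ND 15-17-18 or HFD 23 are given beside many differences, and leaving out another library moved some of them more.

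Per kilobase of transcript, the subunit genes spanned a wide range of levels. The most abundant were the catalytic subunits of ATP synthase, with Atp5b (beta) at a log2 mean level per kb of 14.39 in HFD and 14.31 in ND, and Atp5a1 (alpha) at 13.57 in HFD and 13.58 in ND. Cox4i1, a regulatory subunit of cytochrome c oxidase, followed at 13.50 in HFD and 13.09 in ND. Among complex I genes Ndufb8, a membrane arm subunit, was highest in HFD, at 12.24, with 12.27 in ND. The median gene of a complex stood at 10.10 in HFD and 9.78 in ND for complex I, and at 11.19 and 11.07 for complex II. For complex III the same medians per kb were 11.08 in HFD and 10.75 in ND, for complex IV 9.95 and 9.30, and for complex V 10.77 and 10.71. The order of the complexes was II, III, V, I, IV in both groups. The low tail consisted of isoform genes: in HFD, Cox7b2 at 3.79, Cox8b at 4.23, Cox6b2 at 4.47 and Ndufa4l2 at 4.50. The HFD means of the isoforms Cox4i2 and Cox8c were raised by HFD 23, where their levels, before division by length, were 10.91 and 6.81.

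**Figure D1:**
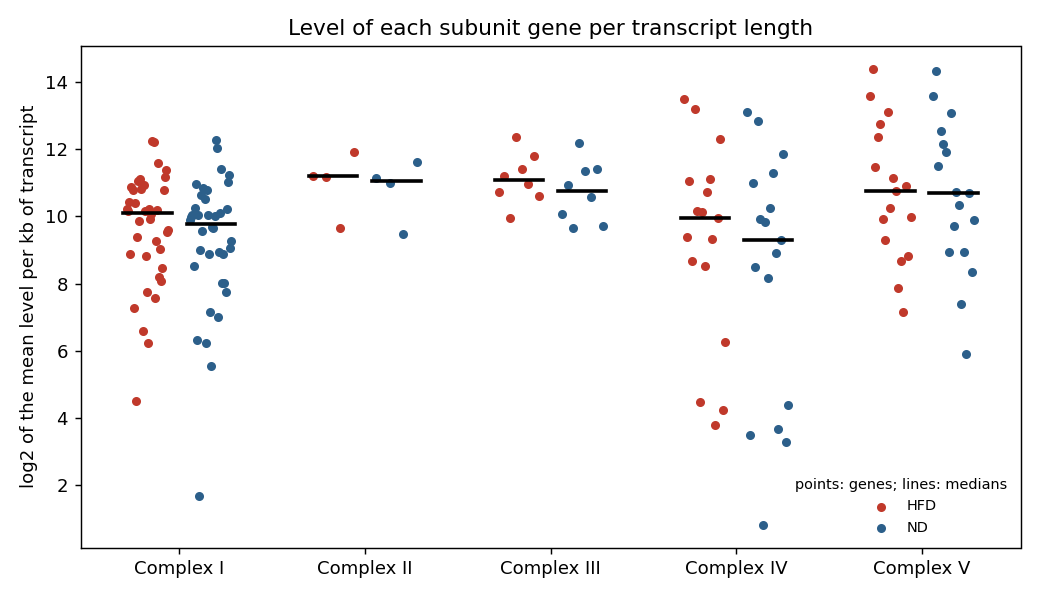
Each point is 1 subunit gene, on a vertical axis that gives the log2 of its mean scaled level per kb of transcript, with HFD in red on the left and ND in blue on the right of each complex, and black lines at the medians; Ndufb1, with no transcript length, is not drawn. The HFD median lies above the ND median in every complex, with 9.95 and 9.30 in complex IV, and the points below 5 are isoforms of complex IV together with Ndufa4l2.

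No respiratory chain subunit passed an adjusted p of 0.05. Most subunits nevertheless had a small positive difference: 78 of 85 (91.8%) stood higher in HFD than in ND on average, where 59.9% of the 27401 rows tested did. Their median difference was 0.34, beside 0.12 for all rows tested and 0.10 for protein-coding rows. Of the 85, 29 lay within 1 SE of 0, 17 lay below the median of all rows, and 16 reached a fold of 1.5. At an unadjusted p under 0.05, 15 subunits were higher in HFD (background 6.43% of rows) and 0 were lower (4.09%). In 9 subunits all 4 HFD libraries lay above all 4 ND libraries (background 4.72%), and in 0 they all lay below (3.12%). In limma, fitted over all rows with Benjamini-Hochberg adjustment, 3 rows were called in all (0.0109%), and the smallest adjusted p of a subunit was 0.23, for Cox6b2. On the values as deposited, 0 subunits were called (0.0584% of rows) and 9 of 85 were higher at an unadjusted p under 0.05, where 9.25% of rows were.

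The positive differences leaned on ND 15-17-18 and HFD 26. ND 15-17-18 was the lowest of the 8 libraries in 56 of the 85 subunits, where 23.5% of rows above 0 in all libraries were lowest there. HFD 26 was the highest in 53 of the 85, where 12.2% of such rows were highest there. Only 79 of the 85 subunits were themselves above 0 in all libraries, so these counts and backgrounds are not fully alike. Without ND 15-17-18 the median difference of the subunits was 0.17, with 0.06 for all rows. The number with a positive difference was then 61 of 85 (71.8%), with 55.9% of all rows. Of those 85, 9 were higher and 1 was lower at an unadjusted p under 0.05 (background 4.56% of rows higher and 4.22% lower). Without HFD 26 the subunit median was 0.22, with 0.13 for all rows, 70 of 85 were positive (61.3% of rows) and 8 were higher at an unadjusted p under 0.05 (5.17% of rows). With ND 15-17-18 and HFD 23 both left out, the subunit median was 0.16, with 0.09 for all rows. Of the 85, 61 were then positive (71.8%), with 58.9% of all rows.

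**Figure D2:**
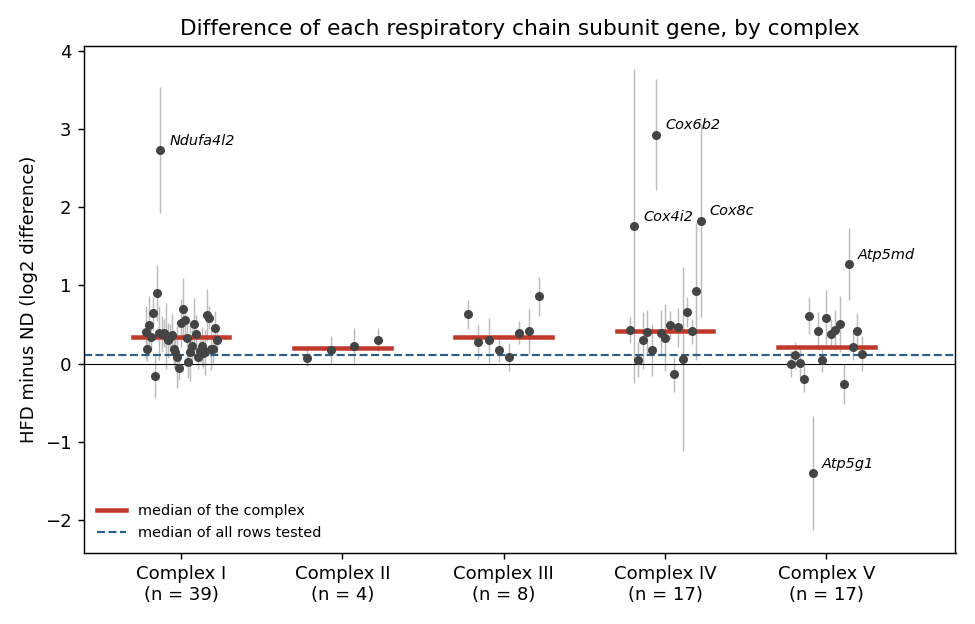
Each point is 1 subunit gene, with its HFD minus ND log2 difference on the vertical axis and its SE as a grey bar; red lines mark the median of each complex and the dashed line the median of all rows tested (0.12). Most points lie between 0 and 1, Ndufa4l2, Cox6b2, Cox8c, Cox4i2 and Atp5md lie above 1, and Atp5g1 lies below -1.

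By complex, the median difference was 0.34 for complex I (37 of 39 positive), 0.20 for complex II (4 of 4), 0.35 for complex III (8 of 8), 0.41 for complex IV (16 of 17) and 0.22 for complex V (13 of 17). In the same order, these medians were 0.13, -0.01, 0.13, 0.30 and 0.06 without ND 15-17-18. Without HFD 26 they were 0.21, 0.07, 0.22, 0.36 and 0.17. Within each library, the median deviation of a complex from the gene means overlapped between the groups in all 5 complexes. Over all subunits this deviation was -0.05, 0.16, 0.46 and 0.02 in HFD 22, 23, 26 and 27, and -0.54, -0.16, 0.02 and 0.05 in ND 15-17-18, 16, 19 and 20. HFD 23 and HFD 26 stood above every ND library, and ND 15-17-18 and ND 16 below every HFD library. HFD 22, HFD 27, ND 19 and ND 20 ran from -0.05 to 0.05.

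Complexes were also set against each other within a library. The deviation of complex IV minus that of complex V in the same library was -0.03 to 0.26 in HFD and -0.35 to 0.21 in ND. For complex I minus complex V it was -0.02 to 0.32 in HFD and -0.17 to 0.12 in ND. For complex IV minus complex II it was 0.00 to 0.22 in HFD and -0.22 to 0.07 in ND. The ranges of the 2 groups overlapped in each of these contrasts.

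**Figure D3:**
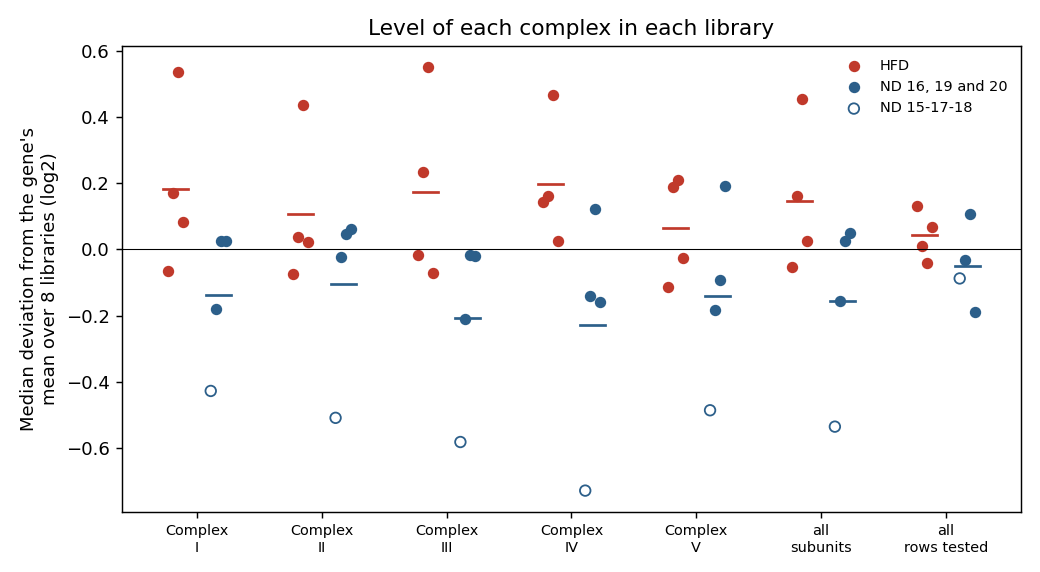
Each point is 1 library, with the median over the genes of a complex of their deviation from their own 8-library mean (log2) on the vertical axis; HFD is red, ND is blue, the open circle is ND 15-17-18 and lines are group means. ND 15-17-18 is lowest in every complex, reaching -0.73 in complex IV, and HFD 26 is the highest of all libraries in every complex.

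Complex I feeds electrons from NADH through a hydrophilic arm built on conserved core subunits, around which accessory subunits are arranged. Its 7 nuclear core genes had a median difference of 0.19 and its 32 accessory genes one of 0.35; without ND 15-17-18 these were 0.02 and 0.19. The difference between accessory and core deviations within a library was 0.00 to 0.15 in HFD and -0.20 to 0.10 in ND, so the ranges overlapped. Ndufs7 (gene 75406, chromosome 10, 80249105 to 80256794), the core subunit that holds the last iron-sulphur cluster before ubiquinone, stood at 10.64, 10.50, 10.82 and 10.37 in HFD 22, 23, 26 and 27. In ND 15-17-18, 16, 19 and 20 Ndufs7 stood at 10.05, 9.67, 10.24 and 10.01. All HFD libraries lay above all ND libraries, a difference of 0.59 ± 0.15 (limma unadjusted p = 0.0030, adjusted p = 0.25). The difference of Ndufs7 was 0.58 without ND 15-17-18, and ran from 0.48 to 0.67 with each library left out in turn.

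Other core genes of complex I had smaller differences than Ndufs7. Ndufv1, which binds NADH and flavin, differed by 0.19 ± 0.19, and Ndufs1, the largest core subunit, by 0.08 ± 0.14; without ND 15-17-18 they stood at 0.02 and -0.05. Ndufs8, a neighbour of Ndufs7 in the ubiquinone module, differed by 0.19 ± 0.27, and by -0.06 without that library. In these 3 genes the HFD and ND libraries overlapped.

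Among accessory genes, Ndufa3 (chromosome 7, 3617347 to 3620165) stood at 6.01, 6.25, 6.94 and 5.95 in HFD 22, 23, 26 and 27. In ND 15-17-18, 16, 19 and 20 it stood at 5.04, 5.58, 5.198 and 5.72. The groups did not overlap, and the difference was 0.91 ± 0.36 (limma adjusted p = 0.42). Ndufa13, also known as a cell death regulator, and Ndufb5, a membrane arm subunit, were outside the naming rule and chosen after their values were seen. They differed by 0.64 ± 0.21 and 0.56 ± 0.20, with overlap between the groups in Ndufb5 and in Ndufa13. Ndufa9, likewise chosen afterwards, was 11.28 to 11.46 in HFD and 10.48 to 11.27 in ND. The ND libraries 19 and 20 came within 0.1 of the lowest HFD library in Ndufa9, and its difference was 0.34 ± 0.17, or 0.13 without ND 15-17-18. Ndufa2 had the lowest difference of the complex, -0.16 ± 0.27, and -0.42 without ND 15-17-18.

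Ndufa4l2 (gene 407790, chromosome 10, 127509274 to 127517154), the hypoxia-inducible paralogue of Ndufa4, was a low gene with the largest difference of complex I. Its level was 4.14, 4.99, 4.61 and 3.89 in HFD 22, 23, 26 and 27, and 0, 1.80, 2.94 and 1.97 in ND 15-17-18, 16, 19 and 20. The groups did not overlap, with a difference of 2.73 ± 0.80 (limma unadjusted p = 0.0071, adjusted p = 0.29) and 2.18 without ND 15-17-18. After scaling, 1 deposited unit is worth 2.74 in ND 15-17-18 and 0.79 to 1.31 in the other 7 libraries. The 0 in ND 15-17-18 thus covers levels up to 2.74. With 32 in place of 1 added to each scaled value, the highest difference of any complex I subunit was 0.63. Ndufa4 itself, which later work places with complex IV, was 8.90 to 10.10 in HFD and 8.30 to 9.74 in ND, a difference of 0.39 ± 0.35, or 0.12 without ND 15-17-18. With both genes counted in complex IV the medians of complexes I and IV were 0.33 and 0.41.

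**Figure D4:**
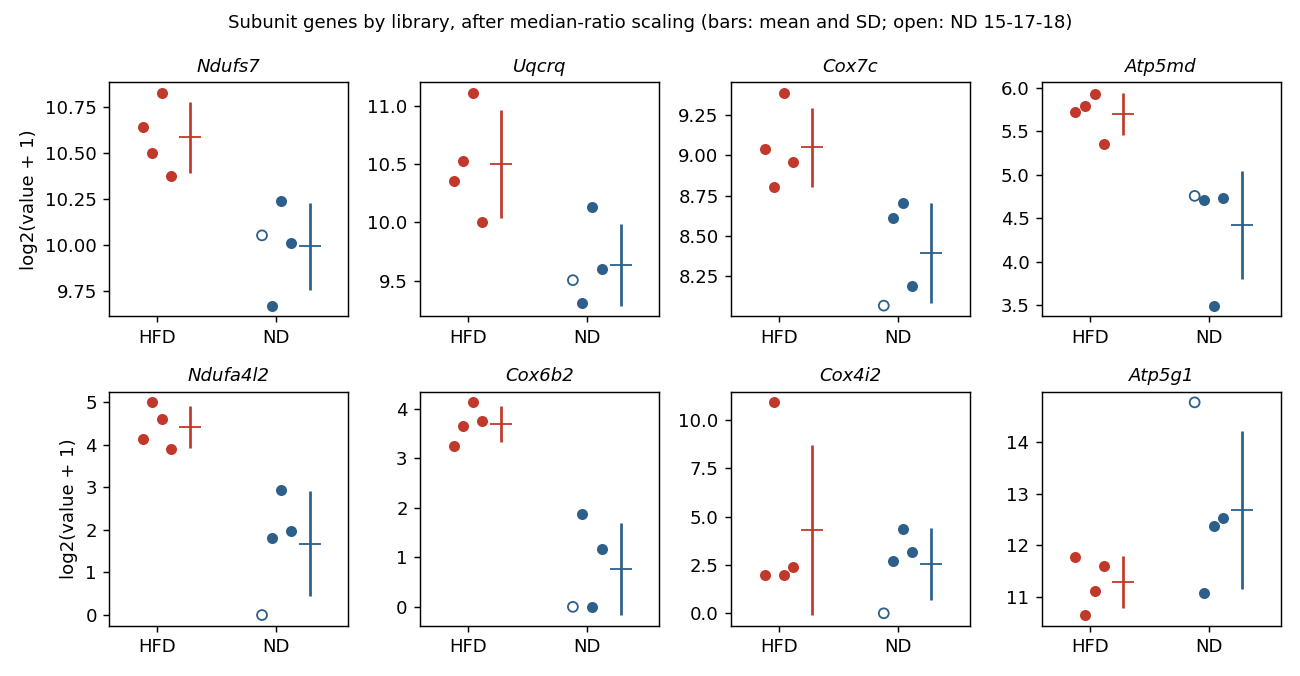
Level of 8 subunit genes, as log2(scaled value + 1), in each HFD (red) and ND (blue) library, with the mean and SD of each group beside the points and ND 15-17-18 as an open circle; each panel has its own vertical range. The groups are apart in Ndufs7, Cox7c, Atp5md, Ndufa4l2 and Cox6b2, overlap in Uqcrq, and 1 library sets the picture in Cox4i2 (HFD 23, 10.91). In Atp5g1, ND 15-17-18 is far above the rest (14.76), and ND 19 and ND 20 also lie above every HFD library.

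Complex II, succinate dehydrogenase, is the only complex encoded wholly in the nucleus and is also an enzyme of the citric acid cycle. Its flavoprotein gene Sdha (chromosome 13, 74322255 to 74350240) was 12.74 ± 0.14 in HFD and 12.66 ± 0.15 in ND (SD, n = 4 each). The iron-sulphur subunit Sdhb was 11.35 ± 0.24 in HFD and 11.17 ± 0.32 in ND, and the membrane anchor Sdhc was 11.30 ± 0.31 in HFD and 11.08 ± 0.46 in ND. These 3 genes differed by less than the spread between libraries. The other anchor, Sdhd (chromosome 9, 50596340 to 50603849), had the largest difference of the complex, 0.31 ± 0.14 (limma unadjusted p = 0.060, adjusted p = 0.49). Sdhd stood at 12.20, 12.06, 12.50 and 12.06 in HFD 22, 23, 26 and 27 and at 11.58, 11.91, 12.09 and 12.01 in ND 15-17-18, 16, 19 and 20. ND 19 reached into the HFD range. Without ND 15-17-18 only Sdhd of the 4 genes kept a positive difference, of 0.17.

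Complex III takes electrons from ubiquinol to cytochrome c. The gene with the largest difference, Uqcrq (chromosome 11, 53427922 to 53430831), encodes a small subunit close to cytochrome b. Uqcrq stood at 10.35, 10.53, 11.11 and 10.001 in HFD 22, 23, 26 and 27, and at 9.51, 9.31, 10.13 and 9.60 in ND 15-17-18, 16, 19 and 20. HFD 27 lay below ND 19, and the difference was 0.86 ± 0.25 (1.82-fold; limma unadjusted p = 0.0062, adjusted p = 0.28). The difference of Uqcrq was 0.79 without ND 15-17-18, and ran from 0.66 to 1.03 with each library left out in turn. Uqcr10, another small subunit, chosen after its values were seen, differed by 0.63 ± 0.19.

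The Rieske iron-sulphur protein gene Uqcrfs1 (chromosome 13, 30540312 to 30545316) was the only 1 of the 8 complex III genes without overlap (background 4.72% of rows). It stood at 11.19, 11.28, 11.61 and 11.56 in HFD 22, 23, 26 and 27, and at 10.68, 11.14, 11.19 and 11.05 in ND 15-17-18, 16, 19 and 20. HFD 22 and ND 19 were within 0.01 of each other, and the difference was 0.40 ± 0.15 (limma adjusted p = 0.39), or 0.26 without ND 15-17-18. The core proteins Uqcrc1 and Uqcrc2, which face the matrix, differed by 0.17 ± 0.16 and 0.09 ± 0.18. Without ND 15-17-18 Uqcrc1 was at 0.04 and Uqcrc2 at -0.13.

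In complex IV, cytochrome c oxidase, all HFD libraries lay above all ND libraries in 3 of 17 subunits (background 4.72% of rows). They were Cox7c, Cox7a2 and the low gene Cox6b2, described further on. Cox7c (chromosome 13, 86044798 to 86046795), a small membrane subunit, stood at 9.04, 8.81, 9.39 and 8.96 in HFD 22, 23, 26 and 27. In ND 15-17-18, 16, 19 and 20 it stood at 8.07, 8.61, 8.70 and 8.19. Its difference was 0.66 ± 0.19 (1.58-fold; limma unadjusted p = 0.0072, adjusted p = 0.29) and 0.52 without ND 15-17-18. Cox7a2, the ubiquitous isoform of another small membrane subunit, was 10.001 to 10.32 in HFD and 9.13 to 9.97 in ND, a difference of 0.50 ± 0.18, or 0.31 without ND 15-17-18. ND 16 reached within 0.1 of HFD 22 in Cox7a2.

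In the other ubiquitous subunits of complex IV the groups overlapped. Cox4i1 (chromosome 8, 120668225 to 120674209), which carries the regulatory nucleotide site, was 13.09 ± 0.18 in HFD and 12.66 ± 0.33 in ND (SD, n = 4 each), a difference of 0.43 ± 0.17 (limma adjusted p = 0.42). Cox8a, the ubiquitous form of subunit 8, differed by 0.41 ± 0.16, and Cox6a1, a regulatory subunit, by 0.40 ± 0.28. Cox6b1, Cox7b, Cox5a and Cox5b differed by 0.17 ± 0.34, 0.46 ± 0.25, 0.05 ± 0.22 and 0.30 ± 0.36. Without ND 15-17-18 Cox4i1 was at 0.27, Cox6a1 at 0.11, Cox7b at 0.20, Cox5a at -0.14 and Cox5b at -0.05. Cox7a2l, a paralogue of Cox7a2, had the lowest difference of complex IV, -0.14 ± 0.23, and -0.38 without ND 15-17-18. Its 4 HFD libraries lay between 11.05 and 11.28 and its ND libraries between 10.69 and 11.92, so the ND libraries enclosed the HFD ones.

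Complex IV carries many of the tissue isoforms of the respiratory chain. Cox6b2 (gene 333182, chromosome 7, 4751792 to 4753094), known as the testis form of Cox6b1, stood at 3.24, 3.65, 4.13 and 3.75 in HFD 22, 23, 26 and 27. In ND 15-17-18, 16, 19 and 20 it stood at 0, 1.88, 0 and 1.17. The groups did not overlap, and the difference of 2.93 ± 0.71 had the smallest p of all subunits (limma unadjusted p = 0.0022, adjusted p = 0.23). In the libraries where Cox6b2 is listed at 0, 1 deposited unit is worth 2.74 (ND 15-17-18) and 1.31 (ND 19), both below the lowest HFD level. It passed the filter on low values through all 4 HFD and 2 ND libraries. At a pseudocount of 32 in place of 1, the highest difference of any complex IV subunit was 1.28.

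The muscle isoforms overlapped between the diets. Cox7a1 was 7.06 ± 0.72 in HFD and 6.72 ± 0.65 in ND, and Cox8b was 2.73 ± 0.96 in HFD and 1.81 ± 1.31 in ND (SD, n = 4 each). Cox6a2, which was not tested, was listed at 0.99, 0.97, 0 and 0 in HFD 22, 23, 26 and 27 and at 2.11 in ND 19, with 0 in the other 3 ND libraries. The testis form Cox7b2 was 0 to 3.97 in HFD and 0 to 4.14 in ND. All of these overlapped between the groups. Cell type markers of striated muscle, of which 9 of 10 were tested, had a median difference of 0.22 and a summed level of 8.12 to 8.62 in HFD and 8.06 to 8.68 in ND, and their part in these levels was not tested.

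In Cox4i2 and Cox8c, HFD 23 was the highest library. Cox4i2 (gene 84682, chromosome 2, 152753916 to 152765039), the hypoxia-responsive lung form of subunit 4, stood at 1.98, 10.91, 1.99 and 2.37 in HFD 22, 23, 26 and 27, and at 0, 2.69, 4.37 and 3.15 in ND 15-17-18, 16, 19 and 20. The difference was 1.76 ± 2.01 with HFD 23 and -0.44 without it. Cox8c, a testis form of subunit 8, was 3.78, 6.81, 3.07 and 3.36 in HFD 22, 23, 26 and 27, and 0, 3.46, 4.79 and 1.46 in ND 15-17-18, 16, 19 and 20. Its difference was 1.83 ± 1.23 with HFD 23, 0.97 without it and 1.01 without ND 15-17-18. HFD 23 exceeded every other library by 6 or more in 90 of the 27401 rows (0.328%), Cox4i2 among them with a gap of 6.55. Near Cox8c, the row of Unc79 showed the same library apart, with 12.04 in HFD 23, 7.68 to 7.88 in the other HFD libraries and 7.24 to 8.17 in ND. Bcl2l1, whose interval overlaps that of Cox4i2, was 10.29 to 10.51 in HFD and 10.64 to 10.91 in ND.

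In complex V, ATP synthase, the 5 genes of the soluble catalytic head had a median difference of 0.00 and the other 12 one of 0.40. Without ND 15-17-18 these were -0.17 and 0.22, and with quantile normalization they were 0.26 and 0.33. The other subunits minus the head within a library were -0.13 to 0.42 in HFD and -0.26 to 0.13 in ND, which overlap. Atp5a1 and Atp5b, the alpha and beta subunits that form the catalytic ring, were 14.86 ± 0.24 and 15.32 ± 0.14 in HFD and 14.87 ± 0.30 and 15.22 ± 0.38 in ND (SD, n = 4 each). Within the head, Atp5e, the epsilon subunit of the central stalk, chosen after its values were seen, differed by 0.62 ± 0.24. Atp5o, which joins the head to the peripheral stalk, differed by 0.42 ± 0.23.

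Atp5md (gene 66477, chromosome 19, 47083471 to 47090647), a small membrane subunit known from synthase dimers, had the largest difference of complex V. It stood at 5.72, 5.79, 5.93 and 5.35 in HFD 22, 23, 26 and 27, and at 4.76, 4.70, 3.49 and 4.73 in ND 15-17-18, 16, 19 and 20. The groups did not overlap, with a difference of 1.27 ± 0.45 (2.42-fold; limma unadjusted p = 0.019, adjusted p = 0.37) and 1.36 without ND 15-17-18. With each library left out in turn, the difference of Atp5md ran from 0.97 to 1.39. No complex V subunit differed by more than 0.641 at a pseudocount of 32 in place of 1.

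The membrane ring of ATP synthase is made of subunit c, for which 3 genes encode the same mature protein. Atp5g1 (chromosome 11, 96072793 to 96075694) had the lowest difference of all subunits, -1.40 ± 0.72 (limma unadjusted p = 0.092). It stood at 11.77, 10.65, 11.12 and 11.61 in HFD 22, 23, 26 and 27, and at 14.76, 11.09, 12.38 and 12.52 in ND 15-17-18, 16, 19 and 20. ND 15-17-18 was far above the rest, ND 16 lay within the HFD range, and the difference was -0.74 without ND 15-17-18. Atp5g2 differed by 0.42 ± 0.24 and Atp5g3 by 0.05 ± 0.15, and without ND 15-17-18 they stood at 0.20 and -0.11. Per kb, Atp5g3 was the most abundant of the 3 genes by the group means, at 13.11 in HFD and 13.07 in ND, with Atp5g1 at 9.93 in HFD (9.23 to 10.35) and 11.91 in ND (9.67 to 13.34, the highest in ND 15-17-18) and Atp5g2 at 9.31 in HFD and 8.95 in ND.

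Short transcripts had the larger differences, among the subunits and among protein-coding rows alike. In subunits with a transcript below 600 bases the median difference was 0.41 (27 genes), beside 0.44 for the 336 protein-coding rows of that length. From 600 to below 1000 bases the medians were 0.38 (28 subunits) and 0.32 (1134 rows), and from 1000 to below 2000 bases 0.19 (21 subunits) and 0.21 (4478 rows). At 2000 bases or more they were 0.08 (8 subunits) and 0.04 (12298 rows). The same order of the 4 classes was seen without ND 15-17-18, with subunit medians of 0.30, 0.25, 0.07 and -0.04 and row medians of 0.25, 0.21, 0.12 and 0.02. Across the 84 subunits with a length, Spearman's rho between length and difference was -0.41, a description across genes of the same libraries. The part of transcript length in the differences between complexes was not tested.

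**Figure D5:**
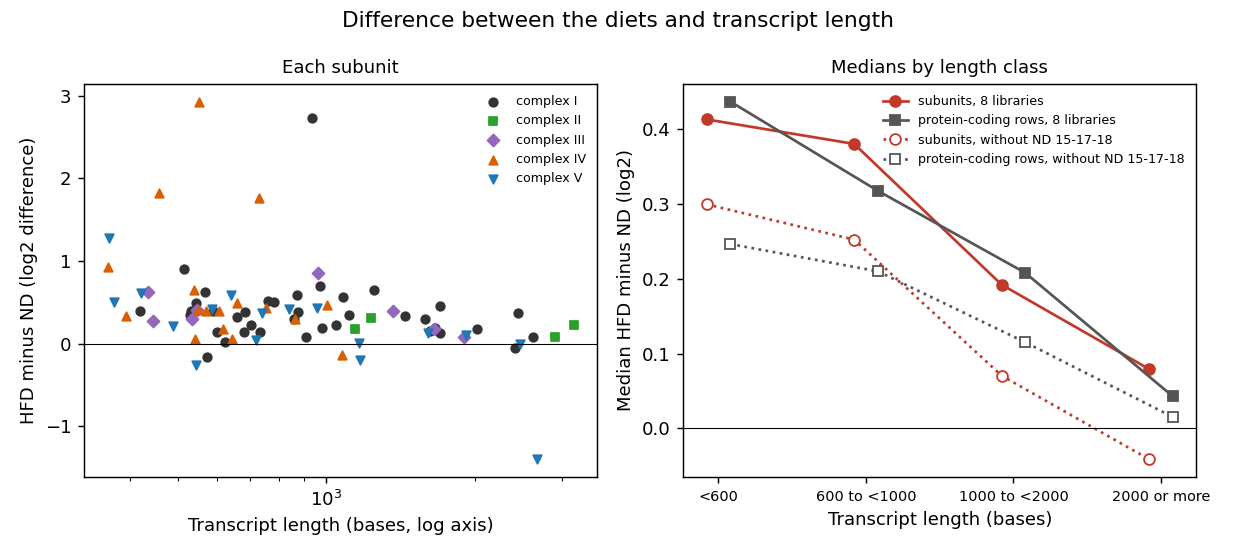
Left, each subunit by the length of its principal transcript in bases (log axis) and its HFD minus ND log2 difference; right, the median difference in 4 length classes for subunits (red circles) and all protein-coding rows (grey squares), with filled symbols for 8 libraries and open ones without ND 15-17-18. Both curves descend with length and lie close to each other, at 0.41 and 0.44 below 600 bases.

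The complex I assembly factors of the Ndufaf series, which build the enzyme without being part of it, were positive in 7 of 8 with a median difference of 0.22. Ndufaf8 (chromosome 11, 120098934 to 120100424), the partner of Ndufaf5, stood at 6.46, 7.41, 7.14 and 6.58 in HFD 22, 23, 26 and 27, and at 5.88, 5.81, 4.76 and 5.97 in ND 15-17-18, 16, 19 and 20. The groups did not overlap, and the difference was 1.29 ± 0.37 (limma adjusted p = 0.29). The other 7 factors were all below 0.6. Of 37 tested assembly factors with other names, 0 were called, 5 were higher and 1 was lower at an unadjusted p under 0.05 (background 6.43% and 4.09% of rows), and the median was 0.16 with 28 positive (59.9% of rows). The 5 were the complex IV factors Coa3 (0.90 ± 0.24), Cox16 (0.73 ± 0.25), Cox14 (0.46 ± 0.20) and Surf1 (0.46 ± 0.14) and the complex III chaperone Bcs1l (0.57 ± 0.21). The 1 was Ttc19, which helps clear Rieske protein fragments from complex III, at -0.40 ± 0.15. Sco2 and Pet117 were listed at 0 in all libraries.

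Among the genes that carry electrons between the complexes, Cyc1, the cytochrome of complex III, and Cycs, cytochrome c, differed by -0.05 ± 0.15 and 0.08 ± 0.25. The 9 ubiquinone synthesis genes had a median of 0.20, with 0 at an unadjusted p under 0.05. Of 6 other genes that deliver electrons to ubiquinone, Dhodh of pyrimidine synthesis (0.40 ± 0.15) and Prodh of proline breakdown (0.44 ± 0.16) were higher at that level (background 6.43% of rows). Of 10 carriers, porins and uncouplers, with a median of 0.22, the only gene past it was Ucp2, a mitochondrial carrier of the uncoupling protein family, at 14.27 ± 0.09 in HFD and 14.62 ± 0.18 in ND (SD, n = 4 each). In Ucp2 all HFD libraries lay below all ND libraries (background 3.12% of rows). None of these genes passed the adjusted threshold.

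Regulators of respiratory chain transcription were also measured. Of 17 tested, 7 were positive with a median of -0.09, and 0 were higher and 3 were lower at an unadjusted p under 0.05 (background 6.43% and 4.09% of rows), with 0 called. Of all rows, 59.9% were positive. The 3 were Ppargc1b and Pprc1, coactivators of the PGC-1 family, and Yy1, a zinc finger factor. Ppargc1b was 9.99, 10.16, 10.12 and 10.16 in HFD 22, 23, 26 and 27, and 11.05, 10.65, 10.35 and 10.64 in ND 15-17-18, 16, 19 and 20, a difference of -0.57 ± 0.15 (limma adjusted p = 0.25). Yy1 was 9.65, 9.39, 9.59 and 9.72 in HFD 22, 23, 26 and 27, and 9.98, 9.91, 10.24 and 10.34 in ND 15-17-18, 16, 19 and 20, a difference of -0.53 ± 0.14 (limma adjusted p = 0.25). In both genes all HFD libraries lay below all ND libraries (background 3.12% of rows), whereas the groups overlapped in Pprc1 (-0.45 ± 0.14). The factors Nrf1, Esrra and Gabpa, which bind promoters of many such genes, differed by -0.11 ± 0.15, -0.15 ± 0.12 and -0.09 ± 0.13.

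Promoter sequences from RefSeq on GRCm38.p6, 250 bases before to 50 after a start, were at hand for 70 of the 85 subunit genes (75 promoters) and for 17492 protein-coding genes (21263 promoters). The search covered both strands and motifs could overlap. The NRF1 palindrome, shown in capitals further on, was in 5 subunit promoters (6.67%) and in 1.33% of all promoters. The ERR letters TCAAGGTCA were in 2 (2.67%) and in 0.334%, the ETS letters CCGGAAG in 17 (22.7%) and in 11.6%, and the YY1 letters AANATGGC in 17 (22.7%) and in 6.37%. A match describes letters only and is not shown to be a bound site. In complex I, 12 of 36 promoters (33.3%) held the YY1 letters. The median difference was 0.35 in subunits with the YY1 letters and 0.35 in those without, and 0.33 with the ETS letters and 0.35 without. It was 0.42 with the NRF1 letters (5 genes) and 0.34 without, and 0.18 with the ERR letters (2 genes) and 0.36 without.

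The 5 subunit promoters with the NRF1 letters come from 4 complexes and are shown to compare the shared core and its flanks. Windows of 30 bases are printed on the gene's strand with the matched letters in capitals.
Ndufa11 NRF1, chr17:56717692-56717721, plus strand: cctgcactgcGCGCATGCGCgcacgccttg
Uqcrc1 NRF1, chr9:108936668-108936697, plus strand: actccgctctGCGCATGCGCagcgcggctc
Cox6a1 NRF1, chr5:115349101-115349130, minus strand: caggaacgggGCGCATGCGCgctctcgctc
Atp5g2 NRF1, chr15:102671070-102671099, minus strand: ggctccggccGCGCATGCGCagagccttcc
Atp5k NRF1, chr5:108434430-108434459, minus strand: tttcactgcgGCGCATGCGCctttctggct
Their differences were 0.49 ± 0.37 for Ndufa11, 0.17 ± 0.16 for Uqcrc1, 0.40 ± 0.28 for Cox6a1, 0.42 ± 0.24 for Atp5g2 and 0.50 ± 0.36 for Atp5k, none past an unadjusted p of 0.05.

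The YY1 letters are shown for complex I genes named above for their differences and for Atp5b, the most abundant subunit per kb. Ndufb5 holds these letters at -225 and at -73 from its start, and only the match at -225 is printed. Of 18 such matches in subunit promoters, 12 lay within 50 bases of the start and 10 after it, and the letters contain ATG, so some may cover a start codon, which was not tested.
Ndufa3 YY1, chr7:3617384-3617413, plus strand: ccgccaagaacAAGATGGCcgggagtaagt
Ndufs7 YY1, chr10:80249462-80249491, plus strand: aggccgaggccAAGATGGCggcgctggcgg
Ndufa9 YY1, chr6:126849097-126849126, minus strand: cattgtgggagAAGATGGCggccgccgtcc
Ndufb5 YY1, chr3:32736827-32736856, plus strand: tgcccttactaAACATGGCcgctcccacgg
Atp5b YY1, chr10:128083313-128083342, plus strand: acccggattccGCCATGTTgagtcttgtgg
In Atp5b the match reads on the opposite strand, as GCCATGTT. The other 8 complex I genes with these letters differed by 0.08 (Ndufb11) to 0.62 (Ndufs6), among them Ndufs4 by 0.13 and Ndufc1 by 0.51.

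The ERR and ETS letters are shown for both ERR matches and for 3 genes of complexes IV and V described above. All 5 are on the opposite strand, as TGACCTTGA and CTTCCGG.
Sdhd ERR, chr9:50603800-50603829, minus strand: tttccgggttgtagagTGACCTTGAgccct
Atp5g3 ERR, chr2:73911359-73911388, minus strand: tgttacaaagTGACCTTGAgcgtcttcccc
Atp5md ETS, chr19:47090627-47090656, minus strand: ggagggggcgtCTTCCGGtcgggccgagct
Cox8a ETS, chr19:7217603-7217632, minus strand: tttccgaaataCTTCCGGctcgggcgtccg
Atp5e ETS, chr2:174464185-174464214, minus strand: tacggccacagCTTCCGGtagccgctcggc
Sdhd and Atp5g3, which hold the ERR letters, differed by 0.31 ± 0.14 and 0.05 ± 0.15. Cox8a holds the ETS letters at -5 and at 33 from its start, and only the match at -5 is printed.

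Markers of the cells in the sort did not move as one. The 9 markers listed as parietal had a median difference of -0.08 and a summed level of 17.71 to 18.28 in HFD and 17.70 to 18.27 in ND. Cblif, at 1.46 ± 0.33, is counted in both the parietal and the chief cell list. The 5 epithelial markers summed to 16.82 to 17.17 in HFD and 16.83 to 17.32 in ND. Within them Epcam was above all ND libraries in all HFD libraries (0.68 ± 0.14) and Cdh1 below (-0.43 ± 0.12), with neither called. The 9 smooth muscle markers had a median of 1.85, with 7 of 9 higher in all HFD libraries than in all ND libraries (background 4.72% of rows), and summed to 12.23 to 12.72 in HFD and 10.88 to 11.90 in ND. The 6 chief cell markers had a median of 0.92 and summed to 21.28 to 21.77 in HFD and 20.31 to 21.48 in ND. Forestomach squamous markers summed to 11.27 to 12.53 in HFD and 6.95 to 11.42 in ND. The 5 tuft markers had a median of -0.44, with 1 positive, and summed to 11.86 to 12.42 in HFD and 11.91 to 13.61 in ND. The 4 pit markers had a median of -0.12, with 1 positive. Among them Muc5ac was below all ND libraries in all HFD libraries (-1.61 ± 0.35; background 3.12% of rows) and was not called. In no list was a marker at 0 in all libraries, and the part of any of them in the subunit differences was not tested.

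Some subunit rows share sequence with other rows. The deposited rows of Cox5b-ps, Atp5pb-ps and Ndufs5-ps held 248%, 194% and 128% of the mean level of their parent genes, and those of Ndufa11b, Atp5l-ps1, Uqcrh-ps1 and Atp5c1-ps 74.0%, 65.2%, 44.6% and 12.1%. Summed with its copy, Uqcrh differed by 0.23 in place of 0.41, Ndufs5 by 0.05 in place of 0.14, and Atp5l by -0.37 in place of -0.26. The other 4 parents moved by less than 0.1. Exons of Ndufa4l2, Ndufb5, Ndufa13 and Uqcrc2 overlap those of Shmt2, Mrpl47, Tssk6 and Pdzd9 on the opposite strand by 32, 158, 375 and 504 bases, and whether the counting used strand is not stated, so the values of these genes are uncertain. Among other overlaps on the opposite strand were 4, 16, 66, 67, 117, 129, 248 and 269 bases of Ndufa3, Atp5md, Ndufa2, Ndufa9, Ndufb11, Atp5a1, Ndufs1 and Cox5a. On the same strand 134 bases of Ndufb8, 145 of Ndufb2, 201 of Ndufb9 and 243 of Atp5o lie in a second annotated gene. For Atp5o that second entry bears the same name.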

How the data were processed

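Total RNA of sorted gastric epithelial cells was sequenced after ribosomal depletion, with 4 HFD and 4 ND libraries grouped by their titles. Each deposited table gives 1 value per gene number. The deposited column has no stated unit and was taken as log2, floored at 0, because 2 to the power of the values adds up alike across libraries, within 0.0039%. The submitters' processing notes name mm10 and bedtools 2.17.0, while aligner, counter and normalization are not stated. Only 23.9% to 34.7% of low values (below 2000 steps) came out as whole multiples of the smallest step, within 0.01, so a count model was not used and depth is an estimate. The number of libraries and this depth limit precision.

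Gene numbers were matched to the RefSeq table of GRCm38.p6 (32933 rows), the assembly also called mm10, and coordinates are from it, counted from 1. Values were scaled by median ratio over 11115 rows above 30 in all libraries, since the common total left the median row 0.90 higher in HFD, and 0.12 after scaling. Rows with a value above 0 in 4 or more libraries (27401) were fitted as log2(value + 1) with limma 3.58.1 (trend and robust, R 4.3.3), HFD minus ND, with Benjamini-Hochberg adjustment and a threshold of 0.05. On this scale the change of low genes depends on the pseudocount and on values listed at 0. The step was tested on simulated data. Lengths are those of principal transcripts in GENCODE M21.

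The members and lists were chosen with earlier results of these data known. Genes are named if they belong to a list of catalytic core genes, are isoforms, have the highest or lowest difference of a complex, or are among up to 3 per complex with no overlap between groups and the smallest p; others are said to be chosen afterwards. Alternatives covered scaling, pseudocount, filter, limma options, a covariate and each library left out. The values of 1 named gene are not reported here.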

Additional observations from a re-analysis of the deposited data

Results flagged for a closer look

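Among the 41 named genes, both groups of 4 libraries were searched for a library whose gap to the nearest of the others, as a share of the range, passed Dixon's critical value at 95%. Of 82 groups examined, 3 met it, where chance gives about 1 in 20.

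Cox4i2, the lung form of complex IV subunit 4, stood at 10.91 in HFD 23, and the other HFD libraries were at 1.98 to 2.37. HFD 23 is also the library least like the others over all rows, and its column heading and that of HFD 27 differ in form from those of the other 6 tables. Atp5md, a small membrane subunit of ATP synthase, was lowest at 3.49 in ND 19, with 4.70 to 4.76 in the other ND libraries; its difference was 1.27 with all libraries and 0.97 without ND 19. Cox6a2, the heart and muscle form of complex IV subunit 6a, was listed at 2.11 in ND 19 and at 0 in the other ND libraries, and was not tested. With all other libraries of a group at 0, the share is 1 whatever the remaining value. The 0 in ND 15-17-18 covers levels up to 2.74.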

How the results depend on the processing

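No single subunit was called under any alternative (0 in each). Rows called numbered 3; 16 with the values as deposited, 0 with ND 15-17-18 and HFD 23 left out together (an alternative chosen after seeing the data), and 0 to 4 with each library left out in turn. As deposited, the medians were 1.18 over all subunits and 1.19, 1.06, 1.201, 1.26 and 1.07 for complexes I to V, where the median of all rows was 0.90. Positive were 84 of 85 subunits (98.8%), beside 89.9% of rows. With quantile normalization the median was 0.30 over all subunits, beside 0.03 for all rows. For complexes I to V it was then 0.28, 0.24, 0.36, 0.46 and 0.32, so that complex V stood above complex I. A further alternative took as covariate the share of the 20 most abundant rows, which is highest in ND 15-17-18. The medians of complexes II and V were then -0.0021 and -0.0053. That of all subunits was 0.19, beside 0.14 for all rows, and 60 subunits were positive (70.6%), beside 62.2% of rows. At a limma unadjusted p under 0.05, 8 subunits were higher and 1 was lower, as were 1185 and 777 of the 27401 rows. Over the left-out libraries the subunit median ran from 0.17 (ND 15-17-18) to 0.40. The number of positive subunits ran from 61 (ND 15-17-18, with 55.9% of rows) to 79 (ND 19, with 62.4% of rows).

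Single genes changed sign as follows, none of them called, and the cause was not tested. Atp5a1 was at 0.26 with quantile normalization. As deposited, Atp5a1 was at 0.85, Cox7a2l at 0.72 and Ndufa2 at 0.69. With the covariate, Sdhc was at -0.014, Sdha at -0.013, Ndufs8 at -0.069, Ndufs1 at -0.060, Cox5b at -0.084, Cox5a at -0.19, Atp5g3 at -0.11, Atp5b at -0.069 and Uqcrc2 at -0.14. With both libraries left out, Sdhc was at -0.027, Ndufs8 at -0.070, Cox5b at -0.052, Atp5b at -0.062, Cox5a at -0.17, Atp5g3 at -0.055, Uqcrc2 at -0.068 and Cox4i2 at -1.32. With each library left out in turn, differences ran from -0.17 to 0.11 for Atp5a1, -0.10 to 0.21 for Atp5b, -0.11 to 0.11 for Atp5g3, -0.44 to 2.54 for Cox4i2, -0.14 to 0.20 for Cox5a, -0.052 to 0.61 for Cox5b, -0.11 to 0.38 for Cox6b1, -0.38 to 0.052 for Cox7a2l, -0.73 to 0.85 for Cox7b2, -0.42 to 0.026 for Ndufa2, -0.053 to 0.16 for Ndufs1, -0.061 to 0.42 for Ndufs8, -0.018 to 0.13 for Sdha, -0.0024 to 0.27 for Sdhb, -0.030 to 0.34 for Sdhc and -0.13 to 0.18 for Uqcrc2. No paired analysis was possible because the groups share no replicate number.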
